A study of Mus musculus with 6 samples.

Results

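The genes of endoplasmic reticulum (ER)-associated degradation (ERAD) examined here are the 10 core genes *Sel1l*, *Syvn1*, *Derl1*, *Derl2*, *Derl3*, *Edem1*, *Edem2*, *Edem3*, *Herpud1* and *Os9*, chosen by symbol from the 54446 genes listed. RNA was sequenced from splenic naive B cells of *Tent5c* KO mice and WT littermates on a mixed C57BL/6J X CBA background, aged 12 to 15 weeks, with 3 libraries of each genotype. The cells of both genotypes had been kept in culture for 7 days in medium holding LPS at 20 µg/ml and IL-4 at 20 ng/ml, which drives B cells towards antibody-secreting plasma cells. KO mice lack TENT5C, a cytoplasmic poly(A) polymerase, in all cells of the animal, and both genotypes came from heterozygotic matings. Each replicate number marks a KO and a WT littermate handled as 1 batch, called a pair here. The sex of the animal behind each library is not given by the labels.

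ERAD removes proteins that fail to fold in the ER. Lectins and mannosidases mark the glycan of a misfolded glycoprotein, a membrane complex built around the ubiquitin ligase HRD1 and its partner SEL1L moves the protein back to the cytosol, and the proteasome degrades it there. Plasma cells make very large amounts of secreted immunoglobulin (Ig), and many ERAD genes are known targets of the unfolded protein response (UPR), the signalling from the ER that expands folding and degradation capacity.

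The libraries held 5393558 to 6793520 fragments assigned to genes. The shallowest was the WT library of pair 3. *Tent5c* itself had 1993, 993 and 1170 normalized counts in the KO-labelled libraries of pairs 1, 2 and 3, against 1255, 767 and 1585 in the WT-labelled ones, so its transcript level did not separate the genotypes and groups are named by their labels throughout. Its log2 fold change was 0.20 (SE 0.19, adjusted *p* = 0.970 in limma), and it was −0.033 without pair 1 and 0.52 without pair 3. Ig genes took 2.09%, 1.03% and 1.54% of the fragments in the KO-labelled libraries, against 2.52%, 1.52% and 3.31% in the WT-labelled ones. The 10 markers of mature B cells summed to 32870 to 39478 normalized counts per library. Of the 8 plasma cell markers 7 passed the filter on low values, while *Tnfrsf17* was at or near 0. Erythroid markers summed to at most 5.72, with 4 of 7 at 0 in all libraries. T cell markers summed to 151 to 282, of which *Cd2* and *Lck* passed the filter, and the highest value of the other 8 was 19.3 for *Trbc2*, in the WT library of pair 3. Myeloid markers summed to 20.0 to 133, with 3 of 10 at 0 in all libraries.

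Each promoter window ran from 250 bases before a gene's start to 50 after it, in RefSeq on GRCm38.p6. A window was found for 9 of the 10 genes, with 2 for *Derl2* and none for *Derl1*. Both strands were searched for 3 elements through which UPR factors act. These were the ER stress response element ERSE (CCAAT, 9 bases of any kind, CCACG), ERSE-II (ATTGG, 1 base of any kind, CCACG) and a core of the UPR element (TGACG directly followed by TGG). No full match of one is a match of another, although ERSE and ERSE-II share the end CCACG. The 3 windows that held a match are shown because they show which members carry such an element near the start, with the matched bases in capitals, 5′ to 3′ on the strand of the gene. They are chr8:94386179-94386478 on the plus strand for *Herpud1*, chr10:75893148-75893447 on the plus strand for *Derl3* and chr19:6046326-6046625 on the plus strand for *Syvn1*.
Herpud1: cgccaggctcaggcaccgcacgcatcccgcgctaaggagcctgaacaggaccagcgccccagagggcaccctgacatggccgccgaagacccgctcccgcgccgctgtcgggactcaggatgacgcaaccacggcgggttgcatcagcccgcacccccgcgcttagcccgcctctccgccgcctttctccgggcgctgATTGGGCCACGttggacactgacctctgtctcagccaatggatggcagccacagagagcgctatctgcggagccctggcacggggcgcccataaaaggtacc
Derl3: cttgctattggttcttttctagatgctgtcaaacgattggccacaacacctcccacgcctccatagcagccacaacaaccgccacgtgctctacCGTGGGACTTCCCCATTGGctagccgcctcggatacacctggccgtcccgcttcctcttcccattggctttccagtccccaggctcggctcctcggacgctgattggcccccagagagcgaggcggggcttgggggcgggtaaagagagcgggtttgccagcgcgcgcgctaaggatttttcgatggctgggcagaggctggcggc
Syvn1: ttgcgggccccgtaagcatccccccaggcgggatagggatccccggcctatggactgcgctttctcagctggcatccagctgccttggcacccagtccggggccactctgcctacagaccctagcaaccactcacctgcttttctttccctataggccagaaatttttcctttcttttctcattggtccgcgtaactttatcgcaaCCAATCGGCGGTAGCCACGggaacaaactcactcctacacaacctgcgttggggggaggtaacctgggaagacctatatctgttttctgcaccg

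ERSE was found in *Syvn1* at bases −44 to −26 from the start, and in *Derl3* on the opposite strand at bases −156 to −138. Over all 32851 windows of the same length, 39 (0.119%) held this motif. ERSE-II was found in *Herpud1* at bases −52 to −42, against 12 windows (0.0365%) of all. The UPR element core was in none of the members' windows and in 222 (0.676%) of all. A match is a description of the letters in the window and was not tied to the binding of a factor here.

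The comparison of libraries labelled KO with those labelled WT asks whether loss of TENT5C goes with a different level of ERAD transcripts in activated B cells. All 10 genes passed the filter (a mean of at least 10 normalized counts over the 6 libraries, which left 12322 genes), with at least 203 fragments in any library. All 10 had a log2 fold change below 0, beside 49.8% of all genes tested, and 7 of the 10 were lower in each of the 3 pairs, beside 13.1% of all genes. None was higher in all 3 pairs, beside 11.7% of all genes. The 10 genes moved together over the libraries, as given below, so they are not 10 separate observations. The median log2 fold change of the 10 was −0.23, with single genes between −0.42 and −0.13, beside 0.00067 over all genes with quartiles of −0.092 and 0.092. These counts and the median of the set were given no test, and no single gene of the 10 passed after adjustment. In limma, 0 of the 10 genes and 0 of all 12322 (0%) were past the adjusted threshold of 0.05. On the unadjusted *p*-value, 4 of the 10 were lower and past 0.05 (*Sel1l*, *Os9*, *Edem2* and *Herpud1*), beside 3.03% of all genes lower at that level, and edgeR and DESeq2 on the recovered fragments each had the same 4, beside 2.99% and 1.54% of all genes lower. After adjustment 0 of the 10 passed in edgeR (0% of all genes) and 0 in DESeq2, which called 0.222% of the genes it adjusted lower and 0.0101% higher. In bulk RNA, fewer cells of a type and less RNA per cell cannot be told apart.

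The 3 pairs contributed unequally. Pairs 1, 2 and 3 had median log2 ratios over the 10 genes of −0.10, −0.13 and −0.51, with 8, 9 and 10 of them below 0. Of all 12322 genes tested, 6553, 6152 and 6102 were below 0 in pairs 1, 2 and 3. The median over all genes lay between −0.0093 and 0.0032 in each pair. Without pair 3 the median log2 fold change of the 10 was −0.13 with 8 below 0, whereas without pair 1 it was −0.32 and without pair 2 it was −0.28, with 10 below 0 in both. Without pair 1, 7 of the 10 were lower with an unadjusted *p*-value under 0.05 in limma, beside 5.09% of all genes lower at that level. Without pair 2 or pair 3, 3 were, beside 2.37% and 2.69% of all genes lower. After adjustment 0 of the 10 passed in each of these 3 fits, beside 1.36%, 0.00812% and 0% of all genes called lower.

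**Figure D1:**
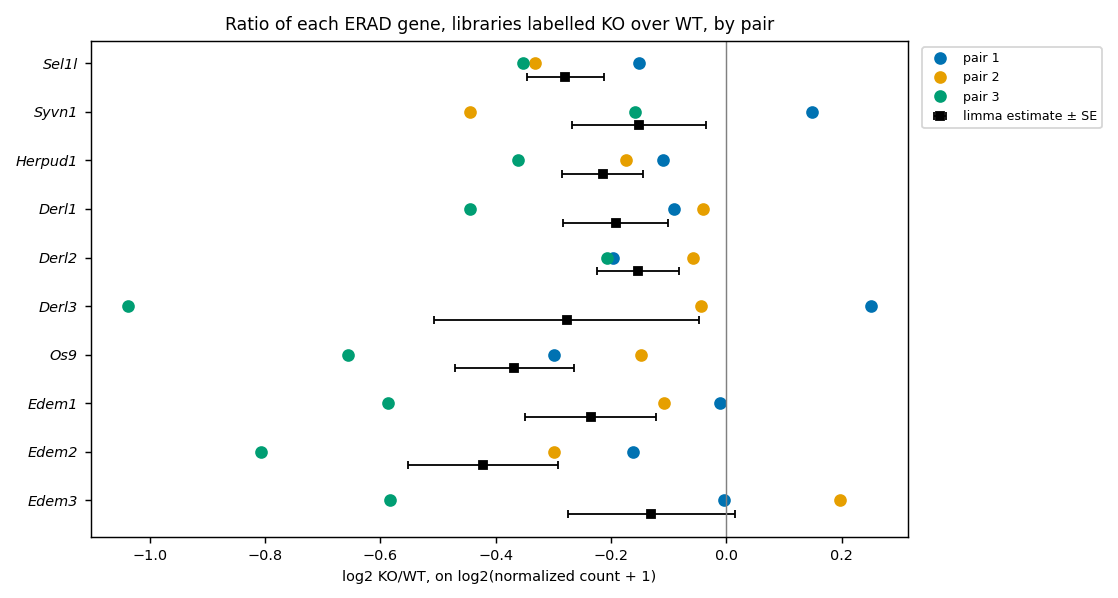
Log2 ratio of the library labelled KO to that labelled WT for each of the 10 ERAD genes on the log2(normalized count + 1) scale. Coloured points are the 3 littermate pairs, black squares with bars are the limma log2 fold change ± SE, and the vertical line marks no difference. Points of pair 3 lie furthest to the left for all genes but *Syvn1*, and *Derl3* in pair 3 (−1.04) is the lowest.

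The first group of genes forms the HRD1 membrane complex. *Sel1l* (ENSMUSG00000020964, chr12:91806043-91849157 of GRCm38, minus strand) encodes the adaptor that holds HRD1 stable and links it to the lectins in the ER lumen. *Sel1l* had 1706, 1156 and 1486 normalized counts in the KO-labelled libraries of pairs 1, 2 and 3, against 1896, 1456 and 1898 in the WT-labelled ones. The library labelled KO was the lower of each pair, yet the groups overlapped. The KO/WT ratio was 0.824, with log2 ratios of −0.15, −0.33 and −0.35. It had the smallest unadjusted *p*-value of the 10 genes, 0.00497, for a limma log2 fold change of −0.28 (SE 0.067, adjusted *p* = 0.737).

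*Syvn1* (ENSMUSG00000024807, chr19:6046576-6053712, plus strand) encodes HRD1 itself, the ubiquitin ligase of the complex, and is 1 of the 2 members with an ERSE in the window above. *Syvn1* had 568, 419 and 558 normalized counts in the KO-labelled libraries, against 513, 571 and 624 in the WT-labelled ones. Pair 1 was higher in the library labelled KO and the other pairs were lower, so that the groups overlapped. The log2 ratios were 0.15, −0.44 and −0.16, and the limma log2 fold change was −0.15 (SE 0.12, adjusted *p* = 0.970). It was −0.0058 without pair 2 and −0.30 without pair 1. The level of *Syvn1* against *Sel1l*, as a log2 ratio of normalized counts per kb of exon within a library, was −0.80 ± 0.27 (SD, n = 3) in WT and −0.67 ± 0.090 in the KO-labelled libraries. The difference between the pair's libraries was 0.30, −0.11 and 0.19 in pairs 1, 2 and 3, with no common direction.

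*Herpud1* (ENSMUSG00000031770, chr8:94386438-94395377, plus strand) encodes HERP, a small membrane protein that binds the complex and is induced early in ER stress, and it carries the ERSE-II shown above. *Herpud1* had 2248, 1976 and 2285 normalized counts in the KO-labelled libraries, against 2425, 2230.1 and 2935 in the WT-labelled ones. It was lower in all 3 pairs, with log2 ratios of −0.11, −0.17 and −0.36, but its highest library labelled KO exceeded the lowest labelled WT. Its limma log2 fold change was −0.21 (SE 0.070, unadjusted *p* = 0.0195, adjusted *p* = 0.970), and −0.14 without pair 3. Against *Sel1l* per kb, *Herpud1* stood at a log2 ratio of 2.41 ± 0.15 in WT and 2.47 ± 0.19 in the KO-labelled libraries (SD, n = 3).

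**Figure D2:**
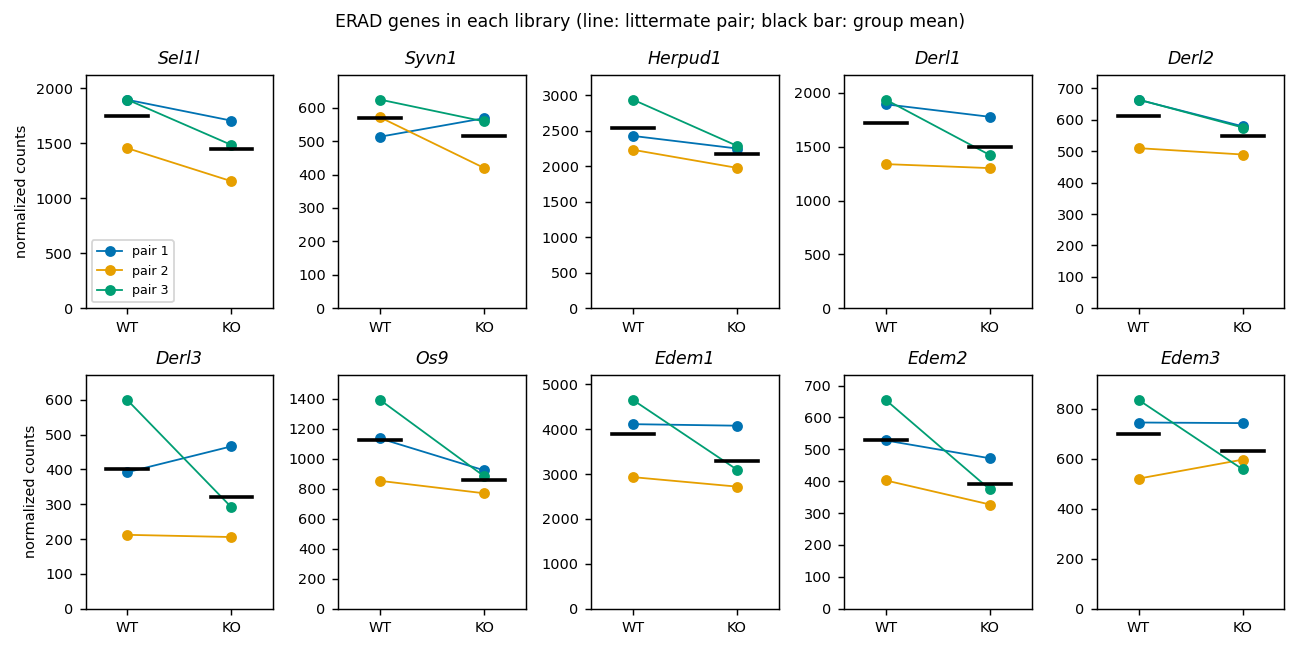
Normalized counts of the 10 ERAD genes in each of the 6 libraries, 1 panel per gene, with lines joining the 2 libraries of a pair and black bars at the group means. The groups overlap for each gene, beside 3.44% of all genes tested that were lower and 3.39% higher in KO without overlap. The WT library of pair 3 is the highest point of every panel.

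The derlins are multi-pass membrane proteins that help misfolded proteins leave the ER, and DERL3 is known as the form of secretory cells. *Derl1* (ENSMUSG00000022365, chr15:57869502-57892448, minus strand) had 1775, 1300.1 and 1421 normalized counts in the KO-labelled libraries, against 1892, 1337 and 1935 in the WT-labelled ones. Its pairs were all lower, with log2 ratios of −0.092, −0.041 and −0.45, and its limma log2 fold change was −0.19 (SE 0.091, adjusted *p* = 0.970). Pair 3 held most of that difference, and without it the log2 fold change was −0.066.

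*Derl2* (ENSMUSG00000018442, chr11:71007164-71019841, minus strand) had 579, 489 and 575 normalized counts in the KO-labelled libraries, against 663, 509 and 663 in the WT-labelled ones. All 3 pairs were lower, with log2 ratios of −0.20, −0.058 and −0.21. This is the narrowest spread over libraries of the 10, since the highest library was 1.36 times the lowest. Its limma log2 fold change was −0.15 (SE 0.071, adjusted *p* = 0.970).

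*Derl3* (ENSMUSG00000009092, chr10:75893413-75895941, plus strand), the other member with an ERSE, had 466, 206 and 291 normalized counts in the KO-labelled libraries, against 392, 212 and 600 in the WT-labelled ones. It was the most variable of the 10, with the highest library at 2.91 times the lowest and a range of 2.83 times among the WT libraries alone. Pair 1 was higher in the library labelled KO (log2 ratio 0.25), pair 2 was nearly level (−0.044) and pair 3 was much lower (−1.04). Its limma log2 fold change was −0.28 (SE 0.23, adjusted *p* = 0.970), and without pair 3 the sign was the opposite, at 0.10.

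The genes that read glycans come next. *Os9* (ENSMUSG00000040462, chr10:127095650-127121131, minus strand) encodes a lectin that delivers trimmed glycoproteins to SEL1L. *Os9* had 923, 770.2 and 883 normalized counts in the KO-labelled libraries, against 1136, 853 and 1393 in the WT-labelled ones. The library labelled KO was lower in each pair, with log2 ratios of −0.30, −0.15 and −0.66, and only the WT library of pair 2 lay within the range of those labelled KO. The KO/WT ratio was 0.775 and the limma log2 fold change was −0.37 (SE 0.10, unadjusted *p* = 0.0103, adjusted *p* = 0.903). Without pair 3 the log2 fold change was −0.22.

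The EDEM genes encode mannosidase-like proteins that trim the glycan or bind the trimmed glycoprotein. *Edem1* (ENSMUSG00000030104, chr6:108828641-108859356, plus strand) had 4079, 2721 and 3098 normalized counts in the KO-labelled libraries, against 4113, 2933 and 4654 in the WT-labelled ones. Pair 1 was almost level at a log2 ratio of −0.012, while pairs 2 and 3 were at −0.11 and −0.59. Its limma log2 fold change was −0.24 (SE 0.11, adjusted *p* = 0.970) and was −0.060 without pair 3.

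*Edem2* (ENSMUSG00000038312, chr2:155701677-155729475, minus strand) is known to start the trimming of the glycan. *Edem2* had 472, 327 and 374 normalized counts in the KO-labelled libraries, against 528, 403 and 655 in the WT-labelled ones. It had the lowest KO/WT ratio of the 10 genes, 0.746, with log2 ratios of −0.16, −0.30 and −0.81 in pairs 1, 2 and 3. The limma log2 fold change was −0.42 (SE 0.13, unadjusted *p* = 0.0154, adjusted *p* = 0.970). It was −0.23 without pair 3 and −0.55 without pair 1, where its adjusted *p*-value was 0.0941, the lowest that limma gave for any of the 10 genes when a pair was left out.

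*Edem3* (ENSMUSG00000043019, chr1:151755371-151822051, plus strand) had 743, 597 and 558 normalized counts in the KO-labelled libraries, against 745, 521 and 836 in the WT-labelled ones. Its pairs pointed in different directions, with log2 ratios of −0.0046, 0.20 and −0.58. The limma log2 fold change was −0.13 (SE 0.14, adjusted *p* = 0.970), the smallest of the 10 in size, and it was 0.096 without pair 3.

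The WT library of pair 3 was the highest of the 6 libraries for all 10 genes, and the KO-labelled library of pair 2 was the lowest for 9, *Edem3* being lowest in the WT library of pair 2. How many of all genes tested had the same extremes was not counted. The mean of the 10 genes on the log2 scale, each centred on its own mean, was 0.12, −0.36 and −0.12 in the KO-labelled libraries, against 0.18, −0.21 and 0.40 in the WT-labelled ones. Each gene's Pearson correlation over the 6 libraries with the mean of the other 9 was between 0.63 (*Syvn1*) and 0.98 (*Edem1*), as a description over libraries that share pairs and genotype. The summed plasma cell markers ranked the libraries as the mean of the 10 genes did, except that the order within pair 1 was reversed. They stood at 15184, 9416 and 11101 normalized counts in the KO-labelled libraries, against 13306, 10111 and 19871 in the WT-labelled ones. The WT library of pair 3 was highest and the KO-labelled library of pair 2 lowest in this sum too, with log2 KO/WT ratios of 0.19, −0.10 and −0.84, and 4 of the 7 tested markers had a log2 fold change below 0. Single markers differed in direction, with a median log2 fold change of −0.0091 over the 7, from −0.47 for *Jchain* to 0.21 for *Eaf2*, and in pair 3 all 7 were lower in the KO-labelled library. Without *Jchain*, a choice made after its values were seen, the log2 ratios of the sum were 0.098, −0.057 and −0.49. The summed mature B cell markers had log2 ratios of −0.11, −0.097 and 0.26. The part of plasma cell content or depth in the differences of the ERAD genes was not tested.

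Levels of different genes were compared as normalized counts per kb of exon. *Herpud1* was the highest, at 1085 ± 156 in WT and 930.1 ± 72.4 in the KO-labelled libraries (mean ± SD, n = 3). *Edem1* followed at 604 ± 136 in WT, then *Derl1* at 517 ± 100.1, *Os9* at 429 ± 103, *Sel1l* at 205 ± 29.7 and *Derl3* at 201 ± 97.3. At the lower end stood *Edem2* at 153 ± 36.5, *Syvn1* at 117 ± 11.4, *Edem3* at 109.8 ± 25.4 and *Derl2* at 76.0 ± 11.05. The order of the means was the same in the KO-labelled libraries. By exon length, the first 4 genes each exceeded the next in all 6 libraries, as *Edem3* did *Derl2*. Neighbours from *Sel1l* to *Edem3* did not differ beyond their spread. *Sel1l* exceeded *Derl3* in 4 of 6 libraries, *Derl3* exceeded *Edem2* in 5, *Edem2* exceeded *Syvn1* in 4, and *Syvn1* exceeded *Edem3* in 3. The order depended on the length used. By coding length *Derl1* had the highest mean, above *Herpud1*, *Derl2* had rank 4 and was above *Derl3* in all 6 libraries, and *Os9* was below *Sel1l* in all 6. With the longest transcript *Edem3* ranked last. The transcript of the ligase was at a lower level per kb than that of its adaptor *Sel1l* in each library, where all log2 ratios of *Syvn1* to *Sel1l* were below 0, also with both other lengths.

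**Figure D3:**
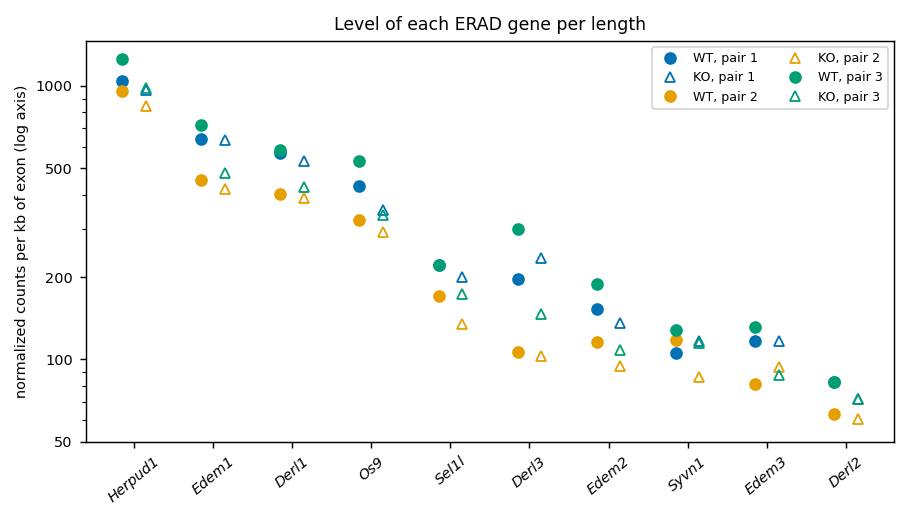
Normalized counts per kb of exon for the 10 ERAD genes on a log axis, ordered by the WT mean. Filled circles are WT-labelled and open triangles KO-labelled libraries, coloured by pair, and some points cover others. *Herpud1* is highest and *Derl2* lowest in each of the 6 libraries by exon length, an order that changes by coding length.

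Within each family, the share of a paralog in the family total per kb does not depend on how libraries were scaled to each other. By exon length, *Derl1* took 60.3% to 70.4% of the derlin total over the 6 libraries, *Derl3* 18.6% to 31.2% and *Derl2* 8.54% to 11.1%. The highest *Derl3* share was in the WT library of pair 3 and the next in the KO-labelled library of pair 1 (27.9%). The order of *Derl2* and *Derl3* depended on the length used. By coding length *Derl2* had a mean share of 23.6% and *Derl3* of 14.7%, with *Derl2* higher in all 6 libraries. *Edem1* took 69.2% to 71.4% of the EDEM total, a narrower range. The share of *Edem2* was 15.4%, 15.5% and 16.0% in the KO-labelled libraries, against 16.8%, 17.8% and 18.2% in the WT-labelled ones, with means of 15.6% ± 0.32 and 17.6% ± 0.70 (SD, n = 3). These shares did not overlap between the groups and were lower in all 3 pairs. *Edem3* took 13.16%, 15.34% and 12.93% in the KO-labelled libraries against 12.88%, 12.51% and 12.58% in the WT-labelled ones, higher in all 3 pairs and also without overlap, by a narrow margin. The groups overlapped for the other 4 of the 6 shares. Shares of a family add up to 100%, so these are not separate results, and they were singled out after their values were seen and given no test or background rate. Both stayed without overlap when the longest transcript or the coding length was used for the length.

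**Figure D4:**
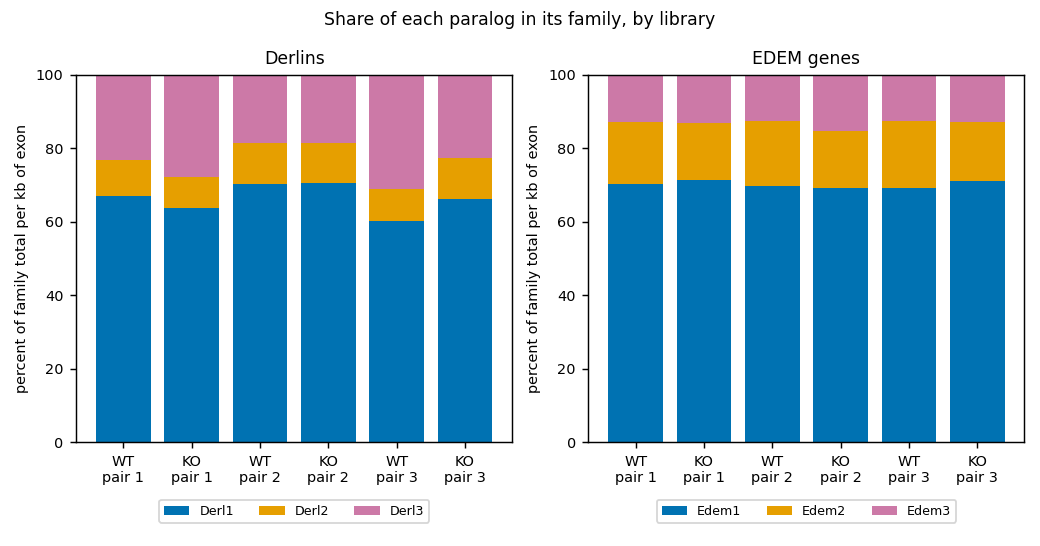
Share of each paralog in its family total of normalized counts per kb of exon, in percent, for the derlins (left) and the EDEM genes (right) in the 6 libraries. *Derl1* and *Edem1* fill most of each bar, and the *Edem2* segment is smaller in each library labelled KO than in each labelled WT.

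The wider ERAD machinery was followed with a list of 51 other genes, of which 50 passed the filter on low values and *Sel1l3* did not. Of these, 24 (48%) had a log2 fold change below 0, 11 (22%) were lower and 6 (12%) higher in all 3 pairs, beside the 13.1% and 11.7% of all genes. The median log2 fold change was 0.0086. After adjustment 0 of the 50 passed in limma, edgeR or DESeq2. With an unadjusted *p*-value below 0.05, 2 of the 50 (4%) were lower in both limma and edgeR, near the 3.03% and 2.99% of all genes lower, and 1 (2%) was higher in both, beside 1.67% and 1.62% of all genes higher. DESeq2 had 0 lower and 0 higher, beside 1.54% and 0.243% of all genes. *Dnajb9*, which encodes the BiP co-chaperone ERdj4, had the lowest log2 fold change at −0.38 (SE 0.14, unadjusted *p* = 0.0293, adjusted *p* = 0.970 in limma). *Dnajb9* stood at 309.6, 178 and 242 normalized counts in the KO-labelled libraries, against 327, 222 and 408 in the WT-labelled ones, lower in all 3 pairs. Without pair 3 its log2 fold change was −0.20. *Selenok*, a selenoprotein of the ER membrane, had a log2 fold change of −0.26 (SE 0.096, unadjusted *p* = 0.0332 in limma), and −0.16 without pair 3.

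*Fbxo6* stood on the other side. It encodes the glycan-binding F-box subunit of a cytosolic ubiquitin ligase. *Fbxo6* had 134, 117 and 139 normalized counts in the KO-labelled libraries, against 104, 92.0 and 117 in the WT-labelled ones, and was higher in all 3 pairs with groups that did not overlap. Its limma log2 fold change was 0.32 (SE 0.12, unadjusted *p* = 0.0306, adjusted *p* = 0.970). Groups did not overlap for 3 of the 50 genes, *Bag6* being lower and *Ubxn1* and *Fbxo6* higher in the KO-labelled libraries, beside 3.44% of all genes lower and 3.39% higher. *Ubxn4*, an ER-bound adaptor of the VCP segregase, and *Rnf145*, an ER ubiquitin ligase, had log2 fold changes of −0.18 and 0.15, with unadjusted *p*-values of 0.0818 and 0.0939 in limma. *Ubxn4* was at −0.063 without pair 3, and *Rnf145* was at 0.090 without pair 2 and 0.23 without pair 1. *Trim13*, a further ER ligase, had the highest log2 fold change at 0.35 (SE 0.33), from 10.8 to 26.4 normalized counts per library. Its log2 fold change was 0.0023 without pair 3 and 0.61 without pair 1. *Vcp*, the segregase that pulls proteins from the membrane, was at −0.095 (SE 0.058).

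**Figure D5:**
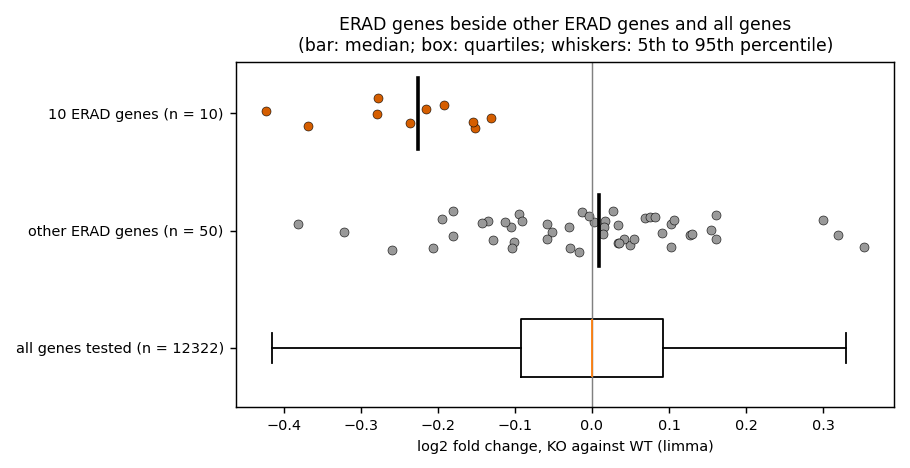
Limma log2 fold change, libraries labelled KO over those labelled WT, for the 10 ERAD genes and the 50 other ERAD genes tested, each gene a point and each set's median a black bar, above a box of the median and quartiles of all 12322 genes with whiskers to the outer percentiles named in its title. The 10 genes lie between −0.42 and −0.13, and the other 50 lie between −0.38 and 0.35.

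For the 6 UPR regulators the adjusted *p*-value in limma was 0.970 for each. *Xbp1*, the transcription factor that drives ERAD genes in plasma cells, had 6743, 3806 and 4906 normalized counts in the KO-labelled libraries, against 4092, 3215 and 6463 in the WT-labelled ones. It was higher in pairs 1 and 2 (log2 ratios 0.72 and 0.24) and lower in pair 3 (−0.40), with a limma log2 fold change of 0.19 (SE 0.19), which was −0.077 without pair 1 and 0.48 without pair 3. Counts per gene do not separate spliced from unspliced *Xbp1*. *Ern1*, which encodes the sensor IRE1α that splices *Xbp1*, had 425, 175 and 211 against 393, 224 and 501, with log2 ratios of 0.11, −0.35 and −1.25. Its log2 fold change was −0.49 (SE 0.23), −0.12 without pair 3 and −0.80 without pair 1. *Atf6*, the sensor that is cleaved to a transcription factor, had log2 ratios of 0.17, 0.023 and −0.56, and a log2 fold change of −0.12 that was 0.097 without pair 3. *Eif2ak3*, the sensor PERK, had a log2 fold change of 0.077, *Atf4*, its translationally induced effector, −0.093, and *Ddit3*, the stress factor CHOP, −0.22 (SE 0.12). Leaving out a pair moved these to between 0.0055 and 0.12 for *Eif2ak3*, −0.11 and −0.056 for *Atf4*, and −0.31 and −0.12 for *Ddit3*.

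The genes outside the 10 whose level over the 6 libraries was most like their centred mean were *Dnajb9* (Pearson *r* = 0.997), *Stx5a* (0.995), *Ptger4* (0.995), *St6gal1* (0.994) and *Slc35b1* (0.994), as the 5 highest of the protein-coding genes tested. *Stx5a* encodes a syntaxin of ER to Golgi transport, *Ptger4* a prostaglandin receptor, *St6gal1* a Golgi sialyltransferase and *Slc35b1* an ATP transporter of the ER membrane. With 6 libraries these values are a description and carry no *p*-value. *St6gal1* was the most abundant of the 5, with 5270.2 to 6468 normalized counts, and its limma log2 fold change was −0.11 (SE 0.063), against −0.30 (SE 0.12) for *Slc35b1*, −0.19 (SE 0.093) for *Stx5a* and −0.16 (SE 0.15) for *Ptger4*.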

How the data were processed

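The authors trimmed adapters, aligned 75-nt read pairs with STAR 2.6.1a to GRCm38 (mm10), counted properly paired, reverse-stranded fragments of mapping quality 10 or more on exons with featureCounts (Subread 1.6.3) and Gencode vM19, and scaled them with DESeq2 size factors. What they deposited is therefore a normalized count per gene, a signal on the count scale. Scaling to equal medians hides a change shared by most transcripts. All values above 0 (100%) were whole multiples of 1 step per library (tolerance 0.1), which gave back the fragment counts. Intervals from these would cover counting error only. Positions came from Gencode vM21, matching 54409 of 54446 identifiers; exon lengths are the union of a gene's exons. No exon of another gene overlapped the 10 genes on their strand.

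Genes averaging at least 10 normalized counts (12322) were tested in limma 3.58.1 under R 4.3.3 (lmFit, then eBayes with a mean-variance trend), on log2(normalized count + 1), with genotype and batch in the model, two-sided, Benjamini-Hochberg adjusted over all genes, threshold 0.05. The pseudocount makes fold changes of low genes too small. Log2 ratios per pair are on the same scale. The recovered fragments were tested with edgeR 4.0.16 (quasi-likelihood) and DESeq2 1.42.0. The share of unadjusted DESeq2 calls is over the same 12322 genes. The fits were tested on simulated data. There, the share of false calls among all calls was above the adjusted threshold of 0.05 in limma, edgeR and DESeq2. Methods name each replicate as a KO and WT littermate pair. Libraries of a pair deviated together from their group means, though weakly in pair 3 (correlations over genes 0.328, 0.685 and 0.170 in pairs 1, 2 and 3). The libraries of pair 3 differed by a chi-square per gene of 17.84. That exceeded the 11.88 between the KO-labelled library of pair 3 and the WT library of pair 1. Within pairs 1 and 2 it was 6.20 and 4.82. No 2 libraries were duplicates. The *p*-values rest on the spread between 3 littermate pairs, but all of these fits also borrow variance from other genes. A *p*-value can therefore be smaller or larger than the 3 ratios of a gene would give by themselves.

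The members, the other ERAD list, the UPR regulators and the marker lists were chosen with earlier results of these data known. Named genes were all 10 members, the 6 UPR regulators, and of the other ERAD list the 5 with the smallest *p*-values and the highest and lowest log2 fold change; *Vcp*, *Bag6*, *Ubxn1*, *Jchain*, *Eaf2* and *Trbc2* were chosen after their values were seen. Likeness took the 5 protein-coding genes with the highest Pearson *r*.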

Additional observations from a re-analysis of the deposited data

How the results depend on the processing

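The alternatives were a pseudocount of 5, no filter or a mean of 50, TMM or quantile scaling, no replicate block, edgeR with and without the block, DESeq2, and leaving out each pair. The median log2 fold change of the 10 ERAD genes was −0.21 to −0.23 under the settings that kept all libraries, and −0.32 to −0.13 when a pair was left out. With no replicate block the value was −0.23 with 0 genes past an adjusted *p*-value of 0.05, in limma and in edgeR, so the block changed no adjusted call. The limma SE was larger without the block for the genes with an unadjusted *p*-value under 0.05. It was 0.16 against 0.067 for *Sel1l*, 0.17 against 0.10 for *Os9*, 0.20 against 0.13 for *Edem2* and 0.11 against 0.070 for *Herpud1*. Unadjusted *p*-values without the block are not given here, so those 4 calls hold for the fit with the block. None of the 10 passed 0.05 under any setting. Over all genes, DESeq2 called 22 lower and 1 higher, and leaving out a pair gave 0 to 168 lower and 0 to 3 higher, with 168 and 3 without replicate 1. The sign turned without replicate 3 for *Derl3* (−0.54 to 0.10 over the left-out pairs), *Edem3* (−0.29 to 0.096) and *Atf6* (−0.27 to 0.097), and without replicate 1 for *Xbp1* (−0.077 to 0.48) and *Tent5c* (−0.033 to 0.52), and the cause was not tested. The mean share of *Derl1* was 66.3% by exon length, 56.2% by longest transcript and 61.8% by coding length, and in the same order *Derl2* had 9.99%, 14.9% and 23.6%, *Derl3* 23.7%, 28.9% and 14.7%, *Edem1* 70.2%, 65.9% and 78.6%, *Edem2* 16.6%, 22.2% and 11.3%, and *Edem3* 13.2%, 11.8% and 10.1%, which follows from the lengths used. Depth limits *Trim13*, with as few as 9 fragments in a library, more than the 10 ERAD genes, with 203 or more.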
